A study of Mus musculus with 4 samples.

Results

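The sites described here are the clusters of crosslinked reads called in the AGO2 immunoprecipitate (IP) of wild-type mouse brain, each scored against the wild-type input. All 46860 clusters of that IP were taken, of 132966 in both IPs of the series, with no selection by score; the other 86106 come from the IP labelled Fmr1 ko. AGO2 was crosslinked to its RNA and pulled down (eCLIP, in which the sequenced fragments mark where the protein touched RNA) from flash-frozen brains, taken whole from C57BL/6 pups of postnatal day 0, with the antibody EAG009. The wild-type group carries no engineered allele and had no treatment, and the labels do not say whether a brain or a pool of brains went into a library. The group has 1 IP library and 1 input library, so no value below has a replicate, and intervals (95%, exact Clopper-Pearson) cover counting error only. The labels list 4 samples in all, an IP and an input for each genotype.

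AGO2 is an Argonaute protein, the core of the silencing complex: it holds a miRNA, a short guide RNA, and uses it to recognise mRNAs. Pairing runs mainly through the seed, the stretch from base 2 to base 8 of the miRNA, and classical targets lie in 3' UTRs, where binding recruits TNRC6 proteins and leads to repression and decay of the mRNA. AGO2 crosslinks both to the loaded miRNA, whose reads map to miRNA genes, and to the target RNA. In developing brain, miR-124 and miR-9 are known as miRNAs of neurons and their progenitors, and let-7 as a family that accumulates as cells differentiate.

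Mature miRNAs under clusters at miRNA genes are shown first, because their seeds define sites searched for in target RNAs. Of the 32 seeds shared by 2 or more miRNA genes with peaks, 8 that the results turn on are given, not chosen by strength, each by the arm under the best peak of its leading gene, 5′ to 3′, with the seed in capitals (mature sequences are from RefSeq, GRCm38).
mmu-let-7b-5p (Mirlet7b): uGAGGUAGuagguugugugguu
mmu-miR-9-5p (Mir9-3): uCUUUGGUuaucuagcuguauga
mmu-miR-125a-5p (Mir125a): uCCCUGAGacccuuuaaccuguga
mmu-miR-16-5p (Mir16-1): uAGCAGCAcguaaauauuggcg
mmu-miR-99a-5p (Mir99a): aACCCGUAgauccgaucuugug
mmu-miR-30e-5p (Mir30e): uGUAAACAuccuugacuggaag
mmu-miR-181c-5p (Mir181c): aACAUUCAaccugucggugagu
mmu-miR-106b-5p (Mir106b): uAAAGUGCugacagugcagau
The mature miR-124-3p is not in that table and is named only.

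Sites in target RNAs that match these seeds are shown next: 30 bases of the mm10 transcript strand around the match, which is in capitals, chosen by hand, after the values were seen, from the enriched peaks with the highest −log10 p for each family and kind of region. They are examples and not a full ranking: some stronger sites are not shown, among them those in Zfhx3 and in the Igf2 5' UTR, where the match lies outside the cluster, the repeat in Spock3, and Igdcc4 and Kmt2a. The letters CTACCTC pair with the let-7 seed, ACCAAAG with that of miR-9 and GTGCCTT with that of miR-124.
Runx1t1 3' UTR, let-7, chr4:13892736-13892765, plus strand: aaaagtttcactCTACCTCtgacagcatgt
Dcx 3' UTR, let-7, chrX:143860748-143860777, minus strand: tgttgcttgttcCTACCTCctgactgttct
Eif4g2 3' UTR, let-7, chr7:111072197-111072226, minus strand: ttgcctgtatttCTACCTCtagtaatgggc
Prr36 coding sequence, let-7, chr8:4213999-4214028, minus strand: cagtttcttcgtCTACCTCcatctcaccac
Kmt2b coding sequence, let-7, chr7:30575418-30575447, minus strand: cagccctcacacCTACCTCaggggagctgg
Actb coding sequence, let-7, chr5:142904568-142904597, minus strand: ggacctgacagaCTACCTCatgaagatcct
Unc5c intron, let-7, chr3:141485145-141485174, plus strand: ggttccgtttatCTACCTCatttcattttc
Myadm 3' UTR, miR-124, chr7:3298130-3298159, plus strand: cctgccttagctGTGCCTTagtctgtgtgt
Nfix 3' UTR, miR-124, chr8:84705441-84705470, minus strand: ccggccgacctaGTGCCTTgttctcacccc
Kcnk10 3' UTR, miR-124, chr12:98434697-98434726, minus strand: acactgagacacGTGCCTTaaatagacttc
Kdm6b coding sequence, miR-124, chr11:69406355-69406384, minus strand: tctaccgcctgcGTGCCTTacgccccttcc
Lsm14b coding sequence, miR-124, chr2:180027930-180027959, plus strand: ttccagccgcatGTGCCTTacagccccttc
Tubb3 coding sequence, miR-124, chr8:123420825-123420854, plus strand: accttcagcgtgGTGCCTTcacccaaagtg
Pou2f1 3' UTR, miR-9, chr1:165866336-165866365, minus strand: cctgatgcagatACCAAAGacaatttcttt
Map1b 3' UTR, miR-9, chr13:99424881-99424910, minus strand: actgaagcaaatACCAAAGcaggtgggagt
Maged1 coding sequence, miR-9, chrX:94537737-94537766, minus strand: tactcctctaggACCAAAGacacaccgaag

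A cluster was counted as an enriched peak where the authors' −log10 p over input was 3 or more and their log2 of IP over input, scaled for depth, was 3 or more. By this limit 11289 of the 46860 clusters (24.1%, interval 23.7 to 24.5%) were enriched peaks. Whole-library totals are not in the files, but the scores fix the input as 6.34 times as deep as the IP and give the reads of 45869 clusters. Clusters were thin: the median cluster held 4 IP reads and 1 input read (an input of 0 counts as 1 throughout), and 5984 of the 11162 enriched peaks with known reads (53.6%) held 5 or 6 IP reads, while 825 held 20 or more. The −log10 p is capped at 400; for the 133 clusters at the cap only the reduced ratio of IP to input reads is known. The p compares the reads of 2 libraries and not replicates.

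The highest enrichment lay at miRNA genes. Of 629 clusters at miRNA genes 580 were enriched peaks (92.2%, interval 89.8 to 94.2%, against 24.1% of all clusters), with a median log2 of 8.81 against 4.99 for all enriched peaks and a median length of 12 bases against 48. These peaks lay at 276 of the 304 miRNA genes with a cluster, of 2201 annotated, and 33 genes had a peak at the cap. Of the 502 enriched peaks at miRNA genes with known reads, 465 (92.6%) had an input of 1 read, the lowest value possible. Among all enriched peaks with known reads this share was 61.4%. The log2 at miRNA genes therefore mostly follows the number of IP reads. The best log2 per gene ran from 3.60 to 12.98 with a median of 8.53. The highest was Mir298, followed by Mir99a at 12.89, Mir300 at 12.74, Mirlet7b at 12.67 and Mir301 at 12.49. The best peak lay on the 5p arm at 124 genes, on the 3p arm at 107 and on a mature with no arm in its name at 5; 38 genes had no mature in the table.

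The 236 genes with a known arm fell into 171 seeds, and 32 seeds were shared by 2 or more genes. The let-7 seed was the most widely carried, by 9 genes (Mirlet7b, Mirlet7i, Mirlet7c-1, Mirlet7g, Mirlet7d, Mirlet7c-2, Mirlet7a-1, Mirlet7f-2 and Mir98), with a best log2 between 6.12 and 12.67 and a median of 10.30. The miR-15/16 seed came next with 7 genes (median 10.67, led by Mir16-1 at 11.60), then the miR-181 seed with 6 (median 9.53, led by Mir181c at 10.40). Seeds of 4 genes were those of miR-125 (led by Mir125a at 12.43), miR-30 (Mir30e, 11.66), miR-17 (Mir106b, 11.33), miR-449 (Mir449a, 9.09) and miR-92/25 (Mir92b, 8.97). All 3 miR-124 genes had peaks, with log2 11.82 at Mir124a-1, 10.66 at Mir124a-2 and 10.54 at Mir124a-3, and so did the 3 miR-9 genes, with 9.26 at Mir9-3 and 7.31 at Mir9-1, whose best peaks lie on the 5p arm, and 7.62 at Mir9-2, whose best peak lies on the 3p arm. Reads of a mature made by several genes cannot be assigned to a gene, so members of a family share their source.

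miRNAs known from blood and vessels also had peaks: Mir126a, which lies in an endothelial gene, reached a log2 of 12.40, and Mir451a, an erythroid miRNA, reached 12.09. Peaks were also grouped along chromosomes. On the plus strand of chromosome 12, 30 miRNA genes from Mir379 to Mir3072 carried peaks between positions 109709065 and 109747933 (median best log2 8.34, range 4.99 to 12.74), and 8 from Mir337 to Mir136 lay between 109585849 and 109595347 (median 9.62); both belong to the imprinted Dlk1-Dio3 region, whose miRNAs are known from brain and placenta. The cluster from Mir17 to Mir92-1 on chromosome 14 had peaks at 6 genes (median 8.89, led by Mir17 at 11.01), and the Mir500 to Mir532 cluster on chromosome X at 5 (median 7.36).

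**Figure D1:**
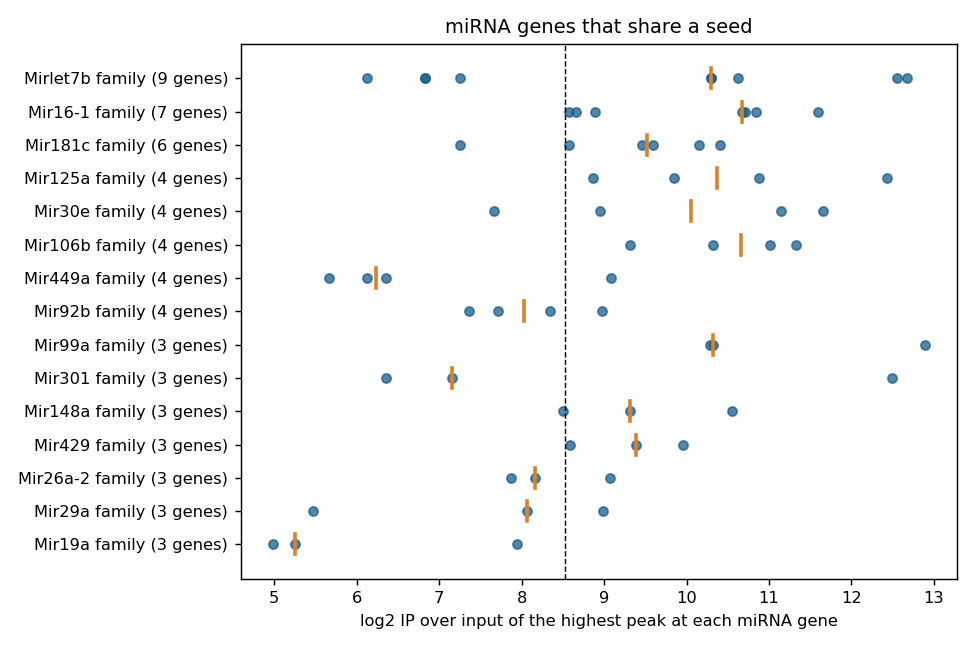
Best log2 of IP over input at each miRNA gene, for seeds shared by 3 or more genes with an enriched peak; rows are named by their leading gene, each point is a gene, the orange tick is the row's median and the dashed line the median over all miRNA genes with a peak (8.53). The Mirlet7b row (the let-7 seed) holds 9 genes between 6.12 and 12.67, and the Mir16-1 row 7 genes up to 11.60.

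Outside miRNA genes, AGO2 sites lay in every part of the transcript. The counts and shares that follow are over all 11289 enriched peaks, those at miRNA genes included. With miRNA genes left out, non-coding exons held 1.42%. Introns held 3970 of the enriched peaks (35.2%, interval 34.3 to 36.1%), 3' UTRs 3183 (28.2%, 27.4 to 29%), coding sequence 2933 (26%, 25.2 to 26.8%), non-coding exons 718 (6.36%, a kind that includes most miRNA genes and in which 50.4% of clusters were enriched) and 5' UTRs 468 (4.15%). The share of clusters that passed the limits was ordered differently. It was 37.3% in 3' UTRs (interval 36.3 to 38.3%), 31% in 5' UTRs (28.7 to 33.4%), 21.1% in coding sequence (20.5 to 21.8%) and 18.5% in introns (18 to 19%), against 24.1% of all clusters. The intervals of these 4 kinds do not overlap, although they cover counting error within 1 pair of libraries. Enriched peaks were thinnest in introns, where 68% held 5 or 6 IP reads, against 47.2% in 3' UTRs and 50.2% in coding sequence. Their median log2 was 4.99 in 3' UTRs, 5' UTRs and introns and 4.47 in coding sequence. The median input under enriched peaks was 2 reads in coding sequence and 5' UTRs and 1 read in 3' UTRs and introns. Raising the limits to a −log10 p of 5 and a log2 of 4 left 4039 peaks and made 3' UTRs the leading kind (35.8%), ahead of introns (25.1%).

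**Figure D2:**
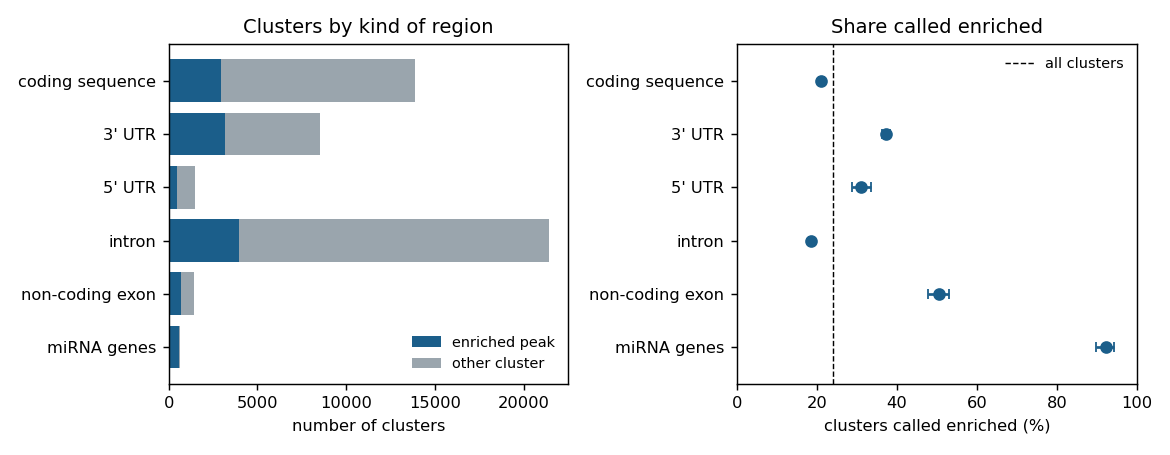
Left, number of clusters in each kind of region, split into enriched peaks (dark) and other clusters (grey); right, share of clusters that were enriched peaks, in percent, with exact 95% intervals and a dashed line at 24.1% for all clusters. Introns hold the most clusters, clusters at miRNA genes (also counted in their kind of region) passed the limits most often (92.2%), and 3' UTR clusters passed the limits more often (37.3%) than coding (21.1%) or intronic ones (18.5%).

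Within the mRNA the peaks were spread out. In 3' UTRs of at least 1000 bases, 15.6% of enriched peaks and 15.6% of other clusters lay in the 10% nearest the stop codon. With 3' UTRs of any length, the median distance of enriched peaks from the start of the 3' UTR was 855 bases, against 865 for other clusters. Within 200 bases of the stop codon lay 15.2% of enriched and 14.7% of other 3' UTR clusters. Enriched peaks of coding sequence lay at a median of 0.514 of its length, against 0.495 for other clusters.

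Clusters lay in exons of 6543 protein-coding genes, and 3308 of these (50.6%) carried at least 1 exonic enriched peak; of the 23924 exonic clusters, 6584 (27.5%) were enriched. A peak was usually alone: 1743 genes had exactly 1 (52.7%), 1354 had 2 to 4 and 211 had 5 or more. Peaks lay only in the 3' UTR of 1280 genes, only in the coding sequence of 1211 and only in the 5' UTR of 154. Both 3' UTR and coding sequence held peaks in 528, with or without peaks in the 5' UTR. Introns carried peaks in 1631 protein-coding genes, 901 of them with no exonic peak. Levels of the RNAs themselves are not in the files, so a gene with many clusters may have more RNA, more sites or both, which cannot be told apart here.

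The genes with the most exonic peaks were Igf2 and the 3 TNRC6 genes, transcription factors and chromatin regulators. Igf2, a growth factor of the fetus, had 26 enriched peaks among 27 exonic clusters, 16 in the 5' UTR, 9 in the 3' UTR and 1 in coding sequence; many abut each other, and joined they make 7. Tnrc6c, Tnrc6a and Tnrc6b, which encode the scaffolds that AGO2 recruits, had 23 of 35, 15 of 23 and 14 of 21 exonic clusters enriched. The peaks of Tnrc6c lay mostly in coding sequence (18 of 23) and those of Tnrc6b mostly in the 3' UTR (11 of 14). Bcl11b, a transcription factor of cortical projection neurons, had 16 of 18, the homeobox factor Zfhx3 12 of 24, Nfix 12 of 17 and Zbtb7a 13 of 14, all of the last in the 3' UTR. Kmt2d, a histone methyltransferase, had 14 of 34, and the protocadherin Pcdh1 13 of 15.

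The strongest 3' UTR site, by −log10 p and then log2, lay in Myadm, a membrane protein gene, at chr7:3298094-3298192 on the plus strand; its log2 was 8.68, IP and input reads stood in the ratio 453 to 7, and it holds the miR-124 site printed above. Ids, a lysosomal sulfatase, followed at 7.58 (151 to 5) with a miR-7 site, and Igf2 at 7.04 (125 to 6) with no site of the families searched. Pcdh1 (6.48, 113 to 8) and Nfix (5.66, 8 to 1), a transcription factor of neural stem cells, each held a miR-124 site. All of these were at the cap, as were Snhg11 (5.10) and the inhibitory receptor gene Gabbr1 (5.03), the latter with a miR-7 site. Snhg11 is also on the list of long non-coding RNAs. Bases masked as repeats made up 100% of the Snhg11 peak, 77.8% of the Myadm peak and 58.9% of the Gabbr1 peak. In the other genes at the cap they made up 0 to 19.2%. Below the cap, the potassium channel gene Kcnk10 had 191 IP reads over 2 input reads (log2 9.24, −log10 p 161) at its miR-124 site. Of these 8 genes, 4 held a miR-124 site and 2 a miR-7 site, where 8.04% and 1.54% of all enriched 3' UTR peaks did; the families were searched in the cluster and 20 bases on either side.

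In coding sequence the strongest peak lay in Kdm6b, a histone demethylase, at chr11:69406335-69406419 on the minus strand (log2 8.14, 311 to 7 reads, at the cap), over the miR-124 site shown above. Rpl14, a ribosomal protein (6.94, 136 to 7), held a miR-15/16 site, and the proline-rich Prr36 (5.97, 89 to 9) let-7 sites. Tnrc6a had 185 IP reads over 4 input reads (log2 8.20) with no site of the families searched. The methyltransferase Kmt2b had 134 over 3 (8.14) with let-7 sites and Zfhx3 127 over 3 (8.07) with a let-7 match that lies in the flank of its 18-base cluster. Cmip had 94 over 2 (8.22) and Lsm14b, a P-body protein, 59 over 5 (6.22) with a miR-124 site. Thus 6 of the 8 held a site of a searched family, beside 31.8% of all enriched coding peaks.

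The 5' UTR peaks were fewer and rested on 1 gene at the top. Igf2 reached a log2 of 11.73 (536 to 1) in a 28-base peak at chr7:142659362-142659389, minus strand, the highest of any mRNA exon, and 2410002F23Rik 3.82 in a peak of 4 bases, both at the cap. The G-protein subunit gene Gnas had 66 IP over 14 input reads (4.90), Stmn2, a regulator of growth cone microtubules, 48 over 9 (5.08), and Gpat4, an enzyme of glycerolipid synthesis, 57 over 1 (8.50). Celf4 (45 over 25), Pou3f3 (51 over 40) and Nrxn2 (31 over 5) completed the 8. A miR-124 match lay in the extended window of Stmn2 and no searched site in the other 7; 16.3% of all enriched 5' UTR peaks held one. These peaks were GC-rich, with a median of 73.7% against 71.4% for other 5' UTR clusters and 50% for enriched 3' UTR peaks.

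Among introns, Grm5, a metabotropic receptor, had the highest log2 of any peak outside miRNA genes, 12.64 (1009 to 1), Gria3, an AMPA receptor subunit, 10.02 (164 IP reads over 1), and Grin1, the common NMDA receptor subunit, 6.62 (31 to 2). Of these the peak in Grin1 was 64 bases long, while those in Grm5 and Gria3 were 3 and 9 bases, and the abutting Grm5 clusters spell the start of miR-125b-5p. The kinase gene Mast1 had 10.22 in 34 bases with a miR-99/100 site. Capn9 (8.74 in 2 bases) and the neurotrophin receptor gene Ntrk3 (6.45 in 6 bases) were also short. Unc5c, a netrin receptor, had 6.26 (145 to 12) over the let-7 site printed above. Spock3 had 6.47 (14 to 1) over a repeat in which the let-7 letters CTACCTC occur 11 times.

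Among non-coding RNAs other than miRNA genes, H19, the imprinted neighbour of Igf2 that also hosts a miRNA, had 5 peaks, the best at log2 7.59 (91 to 3) on the minus strand of chromosome 7. The lincRNA 1700020I14Rik had 11 peaks (best 6.02, 41 to 4) and Peg13, an imprinted RNA, 7 (7.73, 67 IP over 2 input reads). Malat1, a very abundant nuclear RNA, had 1 peak at 3.99 (221 to 88), with a miR-124 and a miR-181 match. The remaining genes among the 8 with the highest −log10 p were Snord118 (3.65), Gm26917 (3.34), Snord88c (3.10) and Fau-ps1 (7.83, in 4 bases). Of the imprinted and nuclear RNAs on the list of long non-coding RNAs, Meg3 had 9 non-coding exon peaks, Neat1 4 and Miat 2 (named after their values were seen).

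The sequence under the peaks was read without reference to any miRNA by counting all 16384 7-mers on the transcript strand in enriched and other clusters of the same kind, each extended by 20 bases. In 3' UTRs GTGCCTT, the miR-124 site, had the largest excess: 255 of 3173 enriched peaks held it (8.04%) against 161 of 5351 other clusters (3.01%). It was taken as the miR-124 site from this ranking, so its excess in 3' UTRs is a description. In coding sequence the let-7 site CTACCTC ranked highest, in 6.18% of enriched peaks (interval 5.33 to 7.11%) against 2.03% (1.77 to 2.31%), followed by the shifted let-7 letters TACCTCA (4.81 against 1.64%). CCAAAGA, which overlaps the miR-9 site, was the third, in 5.39% against 2.7%. Introns were led by GGGAGGG (4.76 against 2.23%) with CTACCTC at rank 3 (4.33 against 2.01%), and 5' UTRs by CCGCGGC (11.1 against 5.49%).

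Because enriched peaks were longer than other clusters (median 51 against 29 bases in 3' UTRs and 45 against 33 in coding sequence), shares were also taken in a fixed genomic window that reaches 50 bases to either side of the midpoint. There GTGCCTT was in 8.1% of enriched and 3.64% of other 3' UTR clusters, and CTACCTC in 6.55% and 2.35% of coding clusters. Tiled over all annotated regions, windows of that length held CTACCTC in 0.875% of coding sequence and 0.662% of 3' UTR sequence, and GTGCCTT in 0.754% and 0.973%. Other clusters thus also held these sites more often than the tiled windows did, although windows around clusters can run past an exon and tiled ones cannot.

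The 2 leading families were not placed alike. In the extended clusters, the let-7 site was in 6.18% of enriched coding peaks and 4% of 3' UTR peaks, and the miR-124 site in 2.87% and 8.04%. The miR-9 site ACCAAAG was in 3.89% of enriched coding peaks (against 1.68% of other clusters) and 2.62% of 3' UTR peaks (against 1.72%). Among the other families, 3' UTR shares were 4.1 against 2.26% for miR-15/16 (TGCTGCT), 3.62 against 1.83% for miR-30 (TGTTTAC), 3.62 against 2.07% for miR-125 (CTCAGGG), 2.96 against 1.51% for miR-17 (GCACTTT) and 2.62 against 1.2% for miR-19 (TTTGCAC). They were 2.4 against 1.31% for the miR-130 family (TTGCACT), 1.54 against 0.748% for miR-7 and 1.51 against 0.71% for miR-153. The miR-138 site CACCAGC stood at 0.977% of enriched and 0.972% of other 3' UTR clusters, although both miR-138 genes carried peaks (9.22 and 8.09). The miR-218 site AAGCACA stood at 0.882% and 0.934%, and at 0.945% and 1.48% with the fixed window, with peaks at both miR-218 genes (8.02 and 5.47). In the extended 3' UTR clusters intervals also overlapped for miR-23, miR-26, miR-29, miR-92/25, miR-99/100, miR-101, miR-103, miR-135 and miR-137. Any of the 25 families searched was matched in 43% of enriched and 26.4% of other 3' UTR clusters, and in 44.6% and 32.7% with the fixed window. The corresponding shares were 35.3% and 23.7% in coding sequence with the fixed window. More than 1 in 2 enriched 3' UTR peaks therefore held no 7-base match to these families. Family by family, 3' UTR differences were also smaller with the fixed window for miR-9, miR-15/16, miR-30, miR-125, miR-17, miR-19, miR-130, miR-7 and miR-153. They were 4.22 against 2.8% for miR-15/16, 3.81 against 2.28% for miR-30 and 2.74 against 1.5% for miR-19. For miR-9 (2.74 against 1.98%), miR-130 (2.36 against 1.74%) and miR-7 (1.58 against 1.03%) the intervals overlapped.

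Sites stood at the middle of the clusters. At the midpoint bin of 20 bases, enriched 3' UTR peaks had 2.017 miR-124 sites per 1000 bases and other clusters 0.748. Enriched coding peaks had 1.911 let-7 sites per 1000 bases there, against 0.626, and intronic ones 1.159 against 0.463. At 200 bases upstream the density was 0.221 for miR-124 in enriched 3' UTR peaks, 0.137 for let-7 in enriched coding peaks and 0.050 for let-7 in enriched intronic ones.

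**Figure D3:**
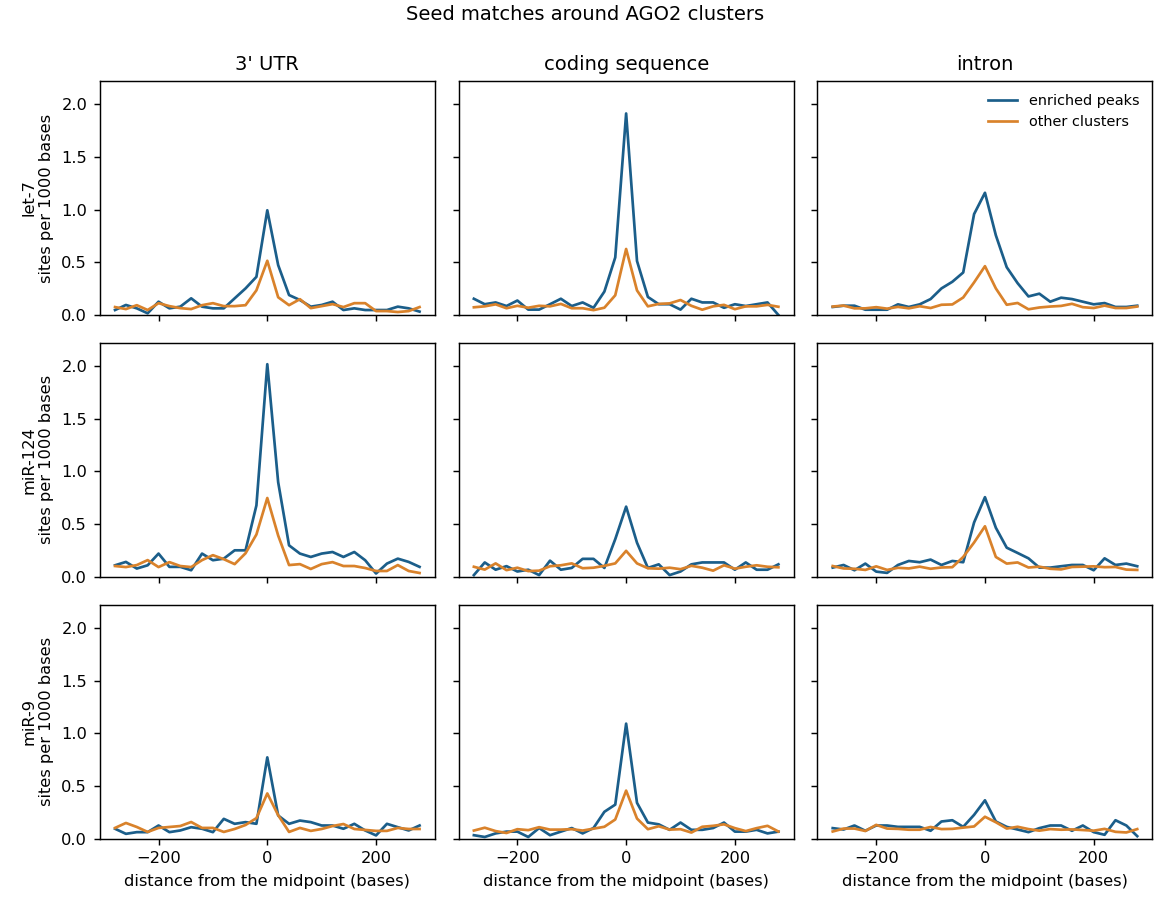
Density of let-7, miR-124 and miR-9 sites (per 1000 bases, transcript strand) in bins of 20 bases by distance from the cluster midpoint, for enriched peaks and other clusters in 3 kinds of region. Each curve has its maximum at the midpoint, up to 2.017 for miR-124 in enriched 3' UTR peaks and 1.911 for let-7 in enriched coding peaks.

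Peaks with more reads held a let-7 site more often in coding sequence and a miR-124 site more often in 3' UTRs. Among enriched coding peaks with 5 or 6 IP reads, 3.87% held the let-7 site in the fixed window, and this was 6.43% with 7 to 9 reads, 12.1% with 10 to 19 and 20% with 20 or more. For miR-124 in 3' UTRs the shares were 5.87%, 8.57%, 9.34% and 18.8%. A site of let-7, miR-124 or miR-9 was in 9.65% of the thinnest and 32.2% of the deepest coding peaks, in 11.1% and 27.2% of 3' UTR peaks, and in 7.15% and 25.7% of intronic ones. The let-7 share in 3' UTRs went from 3.4% to 5.94% and the miR-9 share there from 2.27% to 3.47%, both with overlapping intervals. The miR-9 share of coding peaks was 6.8% with 10 to 19 reads and 4.35% with 20 or more, and the miR-124 share of intronic peaks 10.4% and 7.92%.

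**Figure D4:**
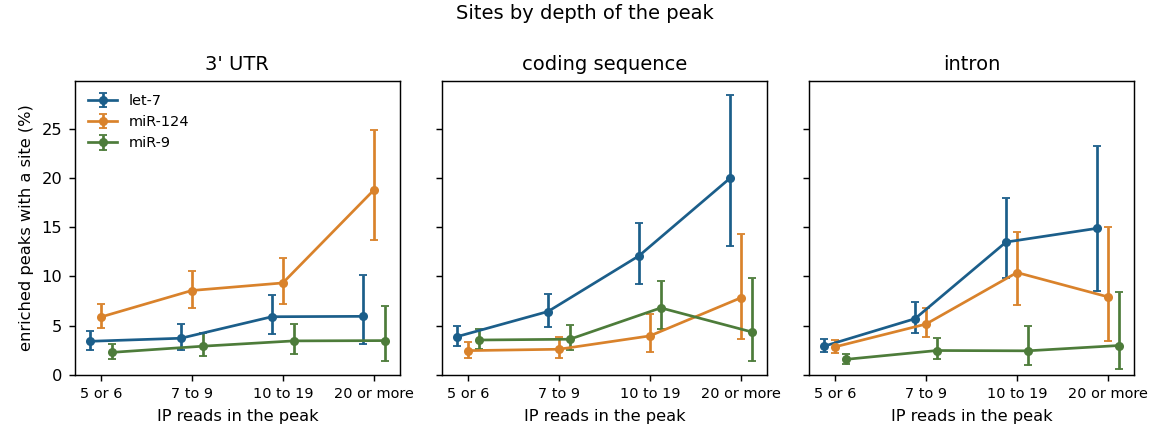
Share of enriched peaks with a let-7, miR-124 or miR-9 site in the fixed window, by number of IP reads in the peak, with exact 95% intervals. The let-7 share of coding peaks runs from 3.87% at 5 or 6 reads to 20% at 20 or more, and the miR-124 share of 3' UTR peaks from 5.87% to 18.8%.

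Listed targets of a miRNA were then read for that miRNA's own site. Of the 30 enriched 3' UTR peaks in listed miR-124 targets, 9 (30%, interval 14.7 to 49.4%) held GTGCCTT, against 7.83% of the other enriched 3' UTR peaks. Genes with such a peak include Cd164, Itgb1, Lamc1, Ptbp1, Rhog, Slc16a1, Sox9 and Zfp36l1; Ptbp1 encodes the splicing repressor that neurons switch off, and Itgb1 and Lamc1 are adhesion genes of progenitors. Listed let-7 targets held their site in 5 of 29 peaks (17.2% against 3.88%), in Adamts15, E2f6, Lin28b, Nr6a1 and Nras. Lin28b, which blocks let-7 maturation, and the oncogene Nras are classical let-7 targets. Listed miR-9 targets held theirs in 5 of 33 (15.2% against 2.48%), in Foxp2, Map1b and Pou2f1. In coding sequence the let-7 site lay under 2 of 17 peaks of its targets, in Dicer1 and Plagl2, and the miR-124 and miR-9 lists had 0 of 6 and 0 of 10, shares of up to 45.9% and 30.8% by their intervals. Such target lists were compiled from known targets, many of them through the seed match, so the own-site share is not independent of the list.

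By function, the share of genes with an exonic peak was highest in the lists of cytoskeleton and chromatin (leaving aside long non-coding RNAs, with 2 such genes) and lowest in ribosomal proteins. Among all protein-coding genes with an exonic cluster 50.6% had an enriched peak, and genes had a median of 2 exonic clusters. Cytoskeletal genes had a peak in 36 of 42 (85.7%), chromatin regulators in 34 of 40 (85%) and axon guidance and adhesion genes in 46 of 55 (83.6%). Ubiquitin ligases and proteolysis had one in 21 of 26 (80.8%), and the list of the FMRP family and FMRP-bound mRNAs in 23 of 29 (79.3%). Genes of these lists also had more clusters, a median of 10 per gene for chromatin and cytoskeletal genes. Ribosomal proteins had a peak in 4 of 15 genes with clusters (26.7%, interval 7.79 to 55.1%, of 50 listed), energy metabolism in 8 of 22 (36.4%, 17.2 to 59.3%) and translation factors in 7 of 15 (46.7%, 21.3 to 73.4%). These 3 intervals include the share of all genes. With limits of 5 and 4 the shares were 52.4% for the cytoskeleton, 50% for chromatin, 52.7% for axon guidance, 9.09% for energy metabolism and 23.7% for all genes.

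Counted over clusters, which does not grow with their number per gene, the order changed. Of all exonic clusters 27.5% were enriched, while the share was 43.4% in imprinted genes, 42.5% in the silencing pathway, 39.7% in transcription factors of neural development, 37.7% in axon guidance and adhesion and 36.2% in growth factor signalling. In imprinted genes and growth factor signalling the excess rested mostly on Igf2. Without that gene these lists stood at 29.4% and 27.4%, near the 27.5% of all exonic clusters. Without Tnrc6c the silencing pathway stood at 37.8%, and without Bcl11b the transcription factors at 37%. The silencing pathway then still held Tnrc6a (15 of 23 clusters enriched) and Tnrc6b (14 of 21), and its share without all TNRC6 genes was not taken. The shares of the cytoskeleton (19.3%), the FMRP family and FMRP-bound mRNAs (19.2%) and motor proteins (17.3%) lay below that of all clusters, although most of their genes had a peak.

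**Figure D5:**
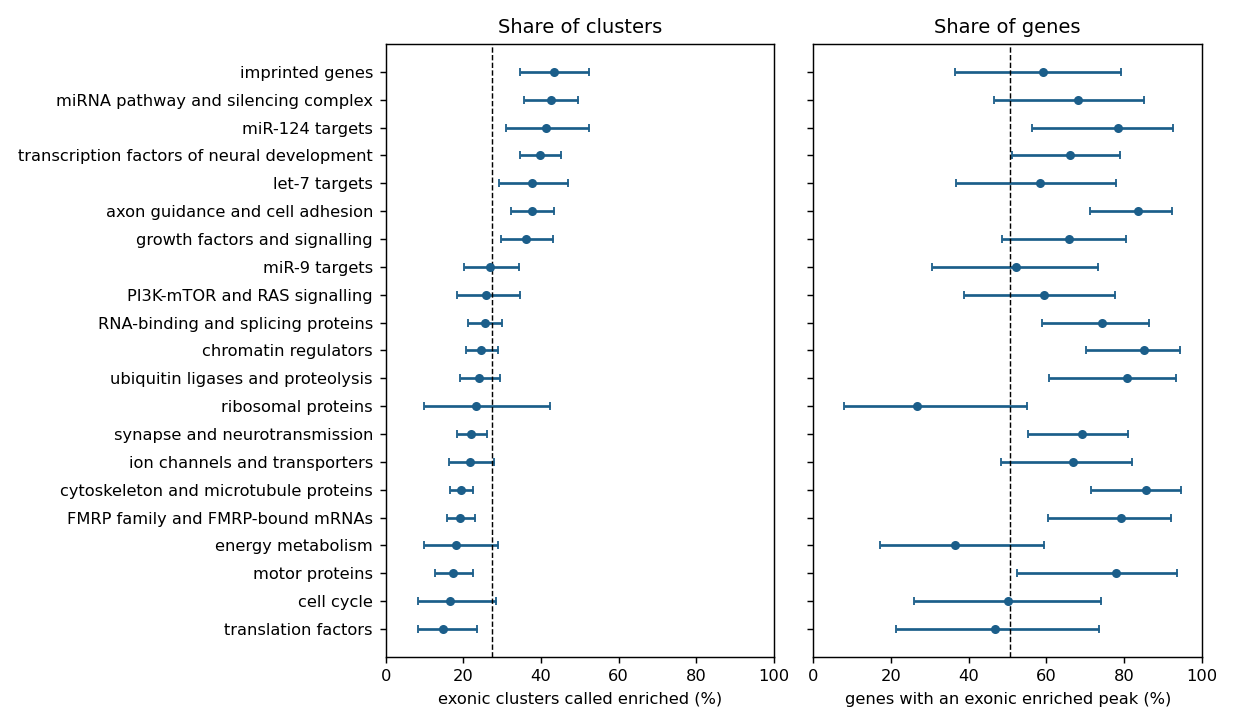
For each gene list, share of exonic clusters that were enriched (left) and share of genes with an exonic cluster that had an enriched exonic peak (right), in percent, with exact 95% intervals; dashed lines mark all protein-coding genes (27.5% and 50.6%). Cytoskeletal genes are low on the left (19.3%) and high on the right (85.7%), and the silencing pathway lies above the line on both (42.5% and 68%).

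For the listed genes below, the best peak is the one with the highest −log10 p, which need not have the highest log2. In the silencing pathway itself, the best peak of Tnrc6c had 60 IP over 2 input reads (log2 7.57, where its highest was 7.62). That of Tnrc6b had 36 over 1 (7.83) with a miR-124 site. Dicer1, the nuclease that matures miRNAs, had 9 peaks, 7 in coding sequence, the best (16 over 2, log2 5.66) with a let-7 site. The highest log2 of its exonic peaks was 6.36. Chosen after their values were seen, the helicase gene Ddx6 had 4 peaks (best 40 over 3 with a miR-124 site), Ago1 4 and Ago2 2. Mov10, the helicase named in the study's title, had no exonic cluster, and Fmr1 had 2, neither enriched.

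Transcription factor genes were led by Bcl11b (best peak 56 over 1, log2 8.47), Zfhx3, Nfix and Nfib (9 peaks, 8 in the 3' UTR). Chromatin regulators were led by Kmt2d, Kmt2a (10 peaks; 44 over 6 reads at a miR-124 site in coding sequence), Kdm6b (9 of 11 clusters) and the remodeller subunit Arid1a (6). Among signalling genes, Apc had 8 peaks, the Wnt effector Ctnnb1 7 and the receptor Acvr1b 4, all 4 in the 3' UTR; Sos1 and Braf had 3 each. Cell cycle genes had a peak in 9 of 18 (50%, beside 50.6% of all genes), with 2 in Mki67 and 1 each in E2f6, Cdkn1c and Rb1, with let-7 sites in the best peaks of E2f6 and Rb1.

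Genes of the cytoskeleton, transport and axon guidance came next. Tubb5, a tubulin, had 9 of 10 exonic clusters enriched, 8 in coding sequence (best 49 over 13, log2 4.58). Dcx, the microtubule protein of migrating neurons, had 8, the best (55 over 5, 6.12) at the let-7 site printed above, and Dpysl3 8. Of the FMRP-bound mRNAs Pclo had 10 of 53 clusters enriched, Ank2 8 of 60 and Map1b 6 of 46; the best peak of Map1b had 51 over 12 reads. The kinesin gene Kif1b had 12 peaks, Kif1a 6, Kif21b 5 and the dynein heavy chain gene Dync1h1 3. In axon guidance and adhesion, Sema7a had all 6 clusters enriched (best 67 over 1, 8.73), Celsr2 8 of 10 and Plxna1 6 of 9.

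Synaptic genes had more peaks in introns than in exons, with 190 intronic and 103 exonic peaks over the list. For axon guidance these were 164 and 117, and over all protein-coding genes 3877 and 6584. These are counts only: the share of intronic clusters that were enriched was 18.5% over all introns and was not taken by list. Nrxn2 had 8 exonic peaks, the postsynaptic scaffold gene Shank1 6 (best 30 over 2, with a miR-19 site) and Syt11 6. Of channels and transporters, Cacna1e had 4, Atp2b1 3 and Kcnk10 3. RNA-binding protein genes were led by Elavl3 with 9 peaks, all in the 3' UTR, and Cpeb2, Prrc2b and Qk with 8 each. Ubiquitin ligases were led by Rnf44 with 10 of 11 clusters enriched (best 30 over 1, with a miR-125 site), Usp22 and Trim2 with 8 and Rnf165 with 5.

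Imprinted genes besides Igf2 included Gnas with 8 peaks, Nnat with 6 and Peg3 with 5. Of the housekeeping lists, translation factors were led by Eif4g2 with 6 peaks (best 32 over 2, log2 6.66, at the let-7 site printed above), while Eif4g1 had 3 and Eif3c and Eif4b 1 each. Rpl32 had 3, Rpl14 2, Rpl4 and Rpl8 1; Aldoa had 3 and Cox5a, Atp5a1 and Uqcrc1 2. Other listed targets with several peaks were Plagl2 (7 of 7) and Lin28b (5) for let-7, Rcor1 (4), Lamc1 (4) and Ctdspl (3) for miR-124, and Pou2f1 (9) and Foxp2 (5) for miR-9.

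Markers of neurons with an exonic cluster had an exonic peak in 11 of 12, beside 50.6% of all such genes, and 31.1% of their clusters were enriched (interval 23.4 to 39.6%, beside 27.5%); among them were Elavl3 (9), Dcx (8), Map2 (7) and Tubb3 (5). Markers of progenitors and radial glia had a peak in 4 of 11, led by Ptprz1 (5), and of astrocytes in 2 of 4 with a cluster, of 6 listed (Slc1a2 and Aqp4). For the oligodendrocyte lineage this was 1 of 2, of 8 listed (Olig1), for microglia 1 of 3, of 7 listed (Csf1r), and for endothelial and mural cells 0 of 4, of 8 listed. Erythroid markers had a peak in 2 of 2 with a cluster, of 6 listed (Hbb-bs with 2 peaks and Hbb-bt with 1). Markers of choroid plexus also had a peak in 2 of 2 with a cluster, of 6 listed. Of these Ttr, the transthyretin gene, had 5, the best with 69 IP over 2 input reads (log2 7.77). The part of blood and choroid plexus RNA in the other results was not tested.

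G-quadruplexes, 4-stranded folds of guanine runs, are named in the study's title and were sought as stretches with 4 guanine runs, each of 3 or more, spaced by 1 to 7 bases. Within 50 bases of exonic clusters a match lay at 3.73% of enriched and 1.85% of other clusters. Reading the opposite strand, which the RNA does not contain, gave 3.74% and 2.16%. By kind the transcript-strand shares were 13.9 against 6.93% in 5' UTRs, 4.25 against 2.56% in 3' UTRs, 1.54 against 1.01% in coding sequence and 4.74 against 2.5% in introns. On the opposite strand the shares were 11.1 against 7.89% in 5' UTRs, 3.81 against 2.26% in 3' UTRs, 2.49 against 1.56% in coding sequence, above the transcript strand, and 1.69 against 1.45% in introns. In the fixed window around the midpoint the exonic shares were 2.68 against 1.28%, and 2.25 against 1.43% on the opposite strand. The G-rich 7-mers that lead the intron ranking enter these matches.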

How the data were processed

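Per the labels' protocols and the submitters' processing notes, adapters were cut with cutadapt 1.15, STAR 2.6.0c took out repeat reads before it aligned what was left to mm10, duplicates were removed with UMI tools (version given as 5.2), and clusters were called with CLIPper 1.4. A custom script compared each cluster with the size-matched input. The deposited −log10 p (capped at 400) and the deposited log2 of IP over input are the authors' values. The comparison table of the series was not used.

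Reads were recovered from the scores, since 99.97% of the log2 values equal 2.66 plus log2(IP/input) for whole read numbers (input at most 1000, with 0 taken as 1). Recomputing the −log10 p from these reads came within 1% of the deposited value for all 45869 clusters whose reads are known. Each cluster took the annotation of its midpoint on its own strand (GENCODE vM21, basic set, on GRCm38, the assembly of mm10), with coding sequence first, then 3' UTR, 5' UTR, exons of non-coding transcripts and introns. The basic set was chosen after both sets had been tried. Clusters at miRNA genes are counted in their kind and again on their own, and left out of site and motif counts. Seed sites are matches to bases 2 to 8.

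Named genes are the 8 highest by −log10 p in each kind of region and among non-coding genes, the 10 with the most exonic peaks, up to 4 members of each list by peak count, and the leading miRNA gene of each shared seed; further ones are marked, and some genes under this rule are not reported here. The members, the 22 function lists and the 8 marker lists were chosen with earlier results of these data known. Scripts (Python 3.11.15, pandas 2.3.3, scipy 1.17.1) were tested on simulated data.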

Additional observations from a re-analysis of the deposited data

How the results depend on the processing

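No paired analysis was possible because the group has 1 IP and 1 input library and no test across samples. Limits of 5 and 4 (−log10 p and log2) left 4039 peaks, 35.8% in 3' UTRs, 25.1% in introns, 20.5% coding, 14.7% in non-coding exons and 3.74% in 5' UTRs, in exons of 1548 genes. Limits of 2 and 2 gave 34733 peaks, with 21.8, 48.4, 23.3, 3.05 and 3.29% in the same order, and 5854 genes. Counting any overlap gave 27.2% coding and 3.76% 5' UTR. Joining abutting clusters gave 27.1% coding, 30.5% 3' UTR, 4.86% non-coding exon and 33.3% intron. Leaving out miRNA genes gave 27.4, 29.6, 1.42 and 37.1% in that order. The share of enriched 3' UTR peaks with a let-7, miR-124 or miR-9 site, 14%, was 5.45% when an A had to follow the site, 27.7% with bases 2 to 7, 12% with no flank and 18.7% with limits of 5 and 4. The share of exonic peaks with a predicted G-quadruplex, 3.73%, was 1.48% inside the cluster and 4.52% with limits of 5 and 4. Added after the data were seen, 10 or more IP reads left 2462 peaks in exons of 969 genes, with 23.3% coding, 33.3% 3' UTR, 22.9% non-coding exon and 15.8% intron, and a fixed window gave 2.68% for G-quadruplexes. The comprehensive GENCODE set, also added then, gave 34.8% intron and 3320 genes. Introns led by share with the limits of 3 and 3 and of 2 and 2, and 3' UTRs with the stricter limits and with 10 or more reads; apart from fewer peaks, the cause was not tested. The low depth limits all shares, since 5 IP reads over 1 input read already pass.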

Other observations

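Some intronic peaks outside annotated miRNA genes lay on sequence that spells a mature miRNA. Of 10709 enriched peaks outside miRNA genes, 208 held or lay within 10 bases of a stretch of at least 15 bases of a RefSeq mature miRNA, and for 22 of them, at 18 places, the mature was one with an enriched peak at its own gene. In 18 of the 22 the match began at base 1 of the mature, and all 18 were intronic, with 11 of them at a log2 of 6 or more, a level that 735 of the 10709 peaks reached. The stretches are shown in capitals because the whole of each matches its mature.
Grm5, miR-125b-5p: TCCCTGAGACCCTAAC
Il1rapl2, miR-204-5p: TTCCCTTTGTCATCCTA
Csmd3 and Nrcam, miR-20a-5p: TAAAGTGCTTATAGTG
Ptdss1, miR-138-5p: AGCTGGTGTTGTGAAT
Amotl1, miR-342-3p: TCTCACACAGAAATCGC
The Grm5 clusters (chr7:87979700-87979708 and chr7:87979709-87979726, plus strand) had a log2 of 12.64 at the cap. Those in Il1rapl2 had 31 IP reads over 1 input read (7.62), in Csmd3 30 over 1 (7.57), in Nrcam 24 over 1 (7.25), in Ptdss1 23 over 1 (7.19) and in Amotl1 16 over 1 (6.66). Matches of 15 bases lay in introns of 9530036O11Rik (miR-300-3p, 53 over 1, 8.39) and Magi3 (miR-20a-5p, 8 over 1, 5.66). Whether these reads come from the intron or from the mature miRNA of another locus was not tested.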
